A study of Rattus norvegicus with 4 samples.

Results

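The E2F transcription factors and the pocket proteins were followed as 10 genes: the activators E2f1, E2f2 and E2f3, the repressors E2f4, E2f5, E2f7 and E2f8, and the pocket protein genes Rb1, Rbl1 and Rbl2. They were chosen by name, with earlier results of these data known. Each symbol was listed once, and they are 10 of the 15731 genes of the deposited values. RNA came from cultures of ventricular cardiomyocytes of wild type Wistar rats at postnatal day 1 (one protocol text says day 0), heart muscle cells that still divide to some extent, enriched by a plating step that leaves other cells on the dish. Each culture received 1 synthetic miRNA mimic: human miR-106b (hsa-miR-106b-5p), human miR-93 (hsa-miR-93-5p), human miR-25 (hsa-miR-25-3p), or the worm miRNA cel-miR-67, which served as the control. The labels give 25 nM as the dose in the treatment text and the same figure in mM in the extraction text, and RNA was taken 72 h after transfection. Each mimic has 1 library, so the differences below have no replicate check, and every interval covers counting error alone and leaves out the spread between cultures.

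In the cell cycle, pocket proteins bind E2F factors and hold their target genes silent in resting cells. Cyclin-dependent kinases phosphorylate the pocket proteins, the E2F factors are released, and genes for DNA synthesis are transcribed. E2F1 to E2F3 activate, E2F4 and E2F5 bring the pocket proteins p107 and p130 to promoters and repress, and E2F7 and E2F8 repress without any pocket protein and are themselves switched on by activator E2Fs. Heart muscle cells leave the cell cycle soon after birth, and the retinoblastoma protein and p130 are known to keep the cycle genes of these cells silent. E2F1 is also a known target of the miR-17 family, to which miR-106b and miR-93 belong, and the 3 miRNAs of the cluster lie in an intron of Mcm7, an E2F target gene.

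The mature rat miRNAs that correspond to the mimics are shown because the seed, in capitals (bases 2 to 8), groups the mimics. The sequences are RefSeq's, on the minus strand of chromosome 12 of the GRCr8 build, and the human mimics themselves were not sequenced here.
rno-miR-106b-5p (chr12:22157103-22157123): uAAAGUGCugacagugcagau
rno-miR-93-5p (chr12:22156894-22156916): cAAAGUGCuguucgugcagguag
rno-miR-25-3p (chr12:22156652-22156673): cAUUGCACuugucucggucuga
miR-106b and miR-93 share the seed AAAGUGC, and miR-25 has the seed AUUGCAC. Sites for these seeds in the transcripts of the 10 genes were not analysed here.

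Levels are RPKM, reads scaled by the length of a gene's exons and by the library size, and so can be compared between genes. Whole reads behind the RPKM values were recovered for all 15731 genes. Reads on these genes numbered 15175185 in the control library and 16460108 to 18797234 in the mimic libraries, and made up 60.4% to 66.9% of the library size. Heart muscle markers were abundant, with Tnnt2 at 2433 and Actc1 at 7073 RPKM in the control library, and markers of other cells were present as well: the 7 fibroblast markers summed to 503 RPKM and the 5 smooth muscle markers to 746 RPKM, while the 5 endothelial markers found once summed to 5.07 and the 6 macrophage markers to 12.2. In bulk RNA, fewer cells of a type and less RNA per cell cannot be told apart.

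All 10 genes were expressed at low to middle levels. In the control library E2f4 was highest, at 8.47 RPKM, followed by Rbl1 at 6.87, E2f5 at 6.44 and Rbl2 at 5.68. Rb1 was at 3.67 and E2f1 at 3.63, and below them lay E2f3 at 1.62, E2f8 at 1.34, E2f7 at 1.10 and E2f2 at 0.748 RPKM. By reads and length, several neighbours in this order differed by less than counting error, namely Rbl1 and E2f5, E2f5 and Rbl2, Rb1 and E2f1, E2f3 and E2f8, and E2f8 and E2f7. E2f4 was the highest of the 10 in every library and lay above the gene next in order beyond counting error each time. The E2F gene left out of the 10, E2f6, a repressor that works with Polycomb proteins and without pocket proteins, was higher than any of them, at 28.6 RPKM in the control library and 23.8 to 31.0 with the mimics.

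**Figure D1:**
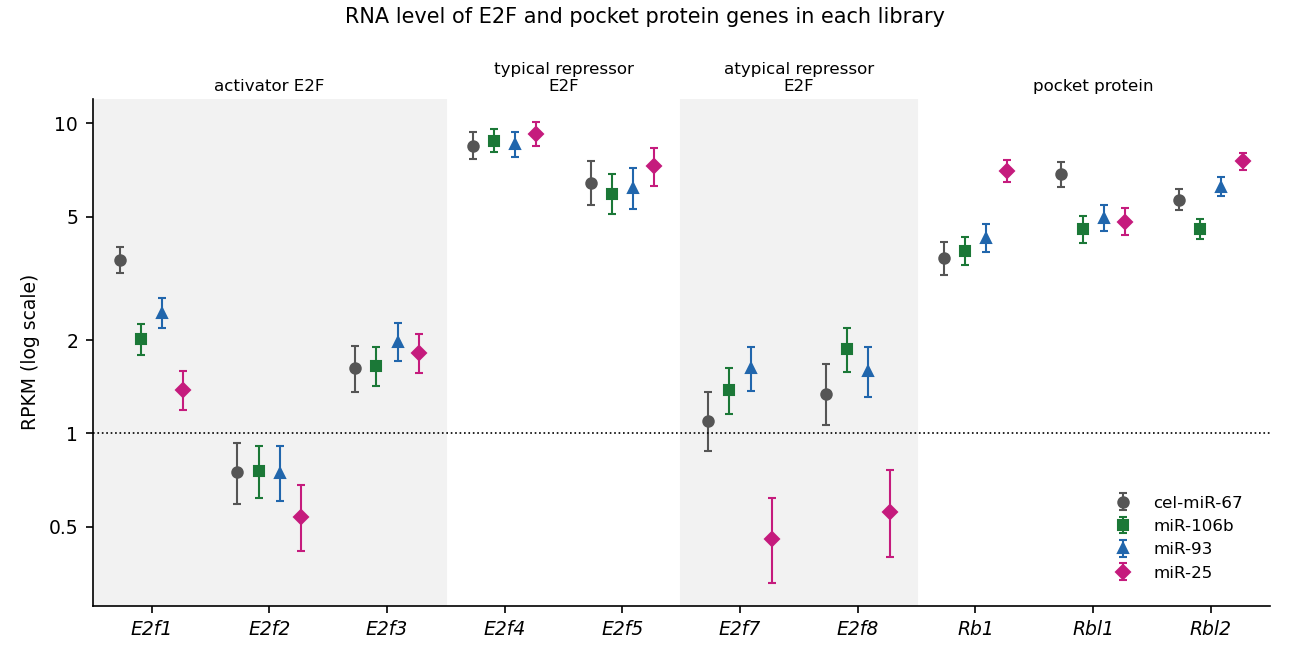
RPKM (log scale) of the 10 genes in the 4 libraries, with 1 point per library and bars for the 95% exact Poisson interval of the reads behind it, and a dotted line at the RPKM cutoff of 1.0. E2f4 and E2f5 sit at about the same height in all libraries, E2f1 and Rbl1 are highest in the control library, and E2f7 and E2f8 drop below 1.0 only under miR-25.

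Fold changes are ratios of deposited RPKM values, mimic over control, and a gene was counted as higher or lower when it was past 1.3-fold (0.38 on the log2 scale) with an RPKM above 1.0 in both libraries. With miR-106b, 9 of the 10 genes had this level, 1 was higher (E2f8), 2 were lower (E2f1 and Rbl1) and 6 lay within 1.3-fold. Of all genes tested, 11.9% were higher and 12.7% lower under miR-106b. With miR-93, 9 genes had this level, 1 was higher (E2f7) and the same 2 were lower, against 15.1% higher and 15.6% lower among all genes. With miR-25, 7 genes had this level, 2 were higher (Rb1 and Rbl2) and again E2f1 and Rbl1 were lower, against 19.3% higher and 22.6% lower among all genes. Over the genes tested, the median log2 fold change of the 10 genes was 0.02 under miR-106b, 0.14 under miR-93 and 0.16 under miR-25, and over all genes it was -0.00, -0.00 and -0.01. With 1 or 2 genes in each count, these numbers are too small to set the members apart from all genes, and the account below turns on the single genes. The 3 comparisons share the control library.

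**Figure D2:**
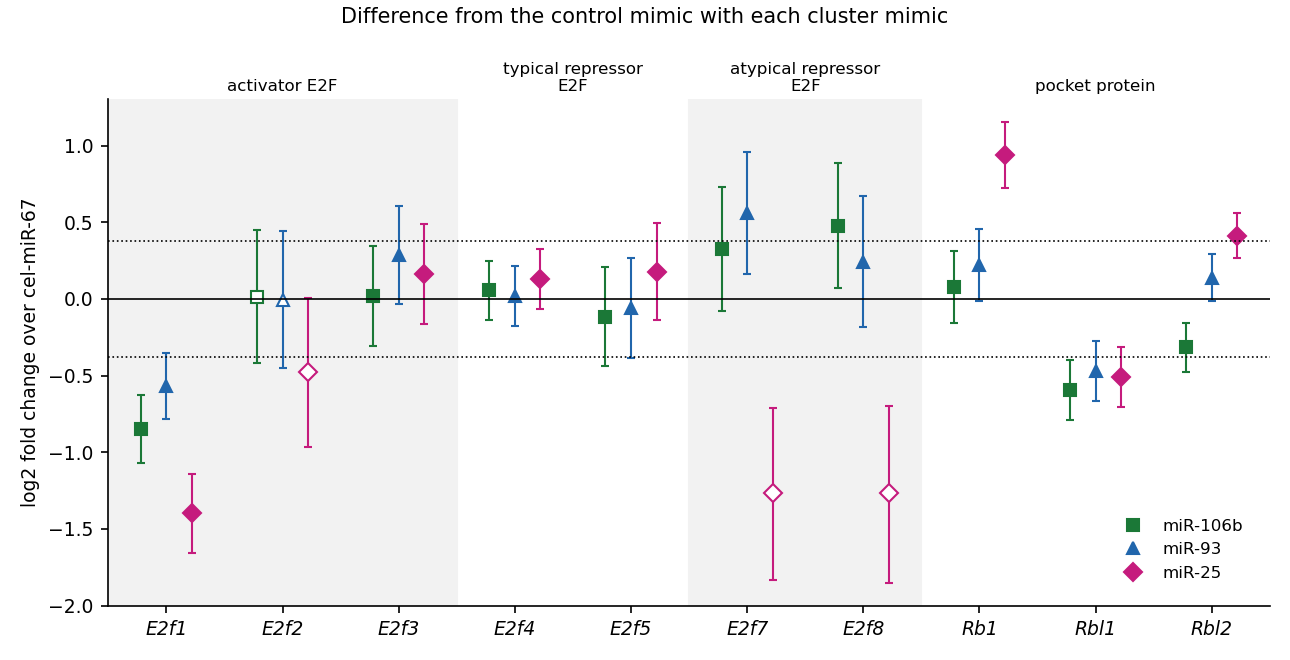
log2 fold change over cel-miR-67 of the 10 genes for each mimic, with 95% exact intervals from the reads of both libraries and dotted lines at 1.3-fold. Filled points had an RPKM above 1.0 in both libraries and open points did not. E2f1 and Rbl1 lie below the lower line with all 3 mimics, Rb1 and Rbl2 lie above the upper line under miR-25, and E2f4 and E2f5 lie between the lines with every mimic.

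Among the activators, E2f1 stood apart. E2f1 (Ensembl gene ENSRNOG00000016708), the factor best known for driving cells into S phase, was at 3.63 RPKM in the control library, 2.02 under miR-106b, 2.45 under miR-93 and 1.38 under miR-25, from 406, 296, 330 and 185 reads. The control library was the highest and the miR-25 library the lowest, and the exact intervals of the control and of each mimic do not overlap. The log2 fold change of E2f1 was -0.85 under miR-106b (95% exact interval -1.07 to -0.63). It was -0.57 under miR-93 (-0.78 to -0.35) and -1.40 under miR-25 (-1.66 to -1.14). In the same order, E2f1 was 1.80-fold, 1.48-fold and 2.64-fold lower than with the control mimic.

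E2f3 and E2f2, the other activators, showed no such difference from the control. E2f3 (Ensembl gene ENSRNOG00000029273) was at 1.62 RPKM in the control library and at 1.64, 1.98 and 1.81 in the miR-106b, miR-93 and miR-25 libraries, from 139 to 204 reads. Its log2 fold changes were 0.02 (-0.30 to 0.35), 0.28 (-0.03 to 0.61) and 0.16 (-0.16 to 0.49). Each of these intervals includes 0. E2f2 (Ensembl gene ENSRNOG00000047741) was scarce, at 0.748, 0.755, 0.745 and 0.537 RPKM under cel-miR-67, miR-106b, miR-93 and miR-25, so it stayed under the RPKM cutoff everywhere. At 80 reads in the control library and 69 in the miR-25 library, no difference of E2f2 from the control was detectable. Its values on the log2 scale were 0.01 (-0.42 to 0.45), -0.01 (-0.45 to 0.44) and -0.48 (-0.96 to 0.00). Relative to the sum of E2f2 and E2f3, E2f1 was 1.53 times as abundant in the control library and 0.840, 0.900 and 0.585 times in the miR-106b, miR-93 and miR-25 libraries. The log2 change of this ratio was -0.87 (-1.20 to -0.53), -0.77 (-1.10 to -0.44) and -1.39 (-1.75 to -1.03), so E2f1 was lower within the activator class and not only against the library as a whole.

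E2f4 and E2f5, the typical repressors, showed no difference beyond counting error at the deposited scaling. E2f4 (Ensembl gene ENSRNOG00000015708), which carries most of the E2F activity of resting cells, was at 8.47 RPKM in the control library and 8.80, 8.57 and 9.26 in the miR-106b, miR-93 and miR-25 libraries. On the log2 scale, its values were 0.06 (-0.14 to 0.25), 0.02 (-0.18 to 0.21) and 0.13 (-0.06 to 0.32). They lie within 1.3-fold, intervals included. E2f5 (Ensembl gene ENSRNOG00000010760), which pairs with p130, was at 6.44 RPKM in the control library against 5.93, 6.17 and 7.27 in the miR-106b, miR-93 and miR-25 libraries, from 148, 179, 171 and 201 reads. Its values of -0.12 (-0.44 to 0.21), -0.06 (-0.39 to 0.27) and 0.18 (-0.14 to 0.49) on the log2 scale show no difference detectable at this depth. Its reads are few for its level, since the gene model of E2f5 behind the RPKM values spans 1014 bases, the shortest of the 10, against 2020 for E2f4 and 4933 for E2f1. Together E2f4 and E2f5 had a log2 change of -0.02 under miR-106b (-0.19 to 0.15), -0.02 under miR-93 (-0.19 to 0.16) and 0.15 under miR-25 (-0.02 to 0.32).

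The atypical repressors were highest under miR-106b or miR-93 and lowest under miR-25. E2f7 (Ensembl gene ENSRNOG00000026252) was at 1.10 RPKM in the control library, 1.38 under miR-106b, 1.62 under miR-93 and 0.457 under miR-25, from 84, 138, 149 and 42 reads. E2f8 (Ensembl gene ENSRNOG00000022537), its close relative, was at 1.34, 1.87, 1.59 and 0.558 RPKM in the same order, from 80, 146, 114 and 40 reads. For both genes the miR-25 library was the lowest and its exact interval lay below those of the other 3 libraries. The log2 fold change of E2f7 was 0.32 under miR-106b (-0.08 to 0.73), 0.56 under miR-93 (0.16 to 0.96) and -1.27 under miR-25 (-1.84 to -0.71). For E2f8 it was 0.48 (0.07 to 0.89), 0.24 (-0.18 to 0.67) and -1.27 (-1.85 to -0.70). With miR-25 both genes were 2.40-fold lower, but their levels put them under the cutoff, so they are not among the genes counted above. Without the RPKM filter 5 of the 10 genes were lower past 1.3-fold under miR-25, namely E2f1, E2f2, E2f7, E2f8 and Rbl1, against 26.2% of all genes with reads in both libraries, and for E2f2 the interval includes 0. Summed, E2f7 and E2f8 stood at 2.44 RPKM in the control library, 3.24 under miR-106b, 3.21 under miR-93 and 1.02 under miR-25, a log2 change of 0.41 (0.13 to 0.69), 0.39 (0.11 to 0.68) and -1.27 (-1.65 to -0.88). These intervals combine the counting errors of the reads by the delta method.

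Activator and repressor E2F genes were then compared within each library, which does not depend on the scaling between libraries. The summed RPKM of E2f1, E2f2 and E2f3 was 0.346 times that of E2f4, E2f5, E2f7 and E2f8 in the control library, 0.246 times under miR-106b, 0.288 times under miR-93 and 0.212 times under miR-25. The log2 change of this ratio was -0.49 under miR-106b (-0.72 to -0.27), -0.26 under miR-93 (-0.49 to -0.04) and -0.70 under miR-25 (-0.94 to -0.47). The activators were thus lower relative to the repressors with each mimic, by a ratio that E2f1 among the activators and E2f4 and E2f5 among the repressors weigh on most. The repressor sum itself was 17.3 RPKM in the control library and 17.55 to 17.98 with the mimics, while the activator sum went from 6.00 to 4.42, 5.17 and 3.73 in the miR-106b, miR-93 and miR-25 libraries. When the mean log2 fold change of the genes was taken in place of the sums, so that each gene counted alike, the difference under miR-25 was -0.015, since E2f7 and E2f8 then weigh as much as E2f4 and E2f5.

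The ratio to the repressors depended on which repressors were taken. Against E2f4 and E2f5, the activators had a log2 change of -0.42 under miR-106b (-0.66 to -0.19). The change was -0.20 under miR-93 (-0.44 to 0.04) and -0.84 under miR-25 (-1.08 to -0.59). Against E2f7 and E2f8, the change was -0.85 under miR-106b (-1.18 to -0.53) and -0.61 under miR-93 (-0.93 to -0.28). With miR-25 it was 0.58 (0.15 to 1.00). Of the 12 pairs of 1 activator and 1 repressor, the activator was lower relative to its partner beyond counting error in 4 pairs under miR-106b, all with E2f1, and in 4 under miR-93, again with E2f1. With miR-25 it was lower in 4 pairs, those of E2f1 and E2f2 with E2f4 and E2f5, and higher in 4, those of E2f2 and E2f3 with E2f7 and E2f8. E2f1 over E2f7 had a log2 change of -0.13 under miR-25 (-0.72 to 0.46), against -1.17 (-1.62 to -0.73) under miR-106b and -1.13 (-1.56 to -0.69) under miR-93.

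The make-up of the E2F pool followed from these values. The summed RPKM of the 7 E2F genes was 23.3 in the control library, 22.4 under miR-106b, 23.1 under miR-93 and 21.3 under miR-25. E2f1 made up 15.5% of this sum in the control library, 9.01% under miR-106b, 10.6% under miR-93 and 6.47% under miR-25. E2f4 and E2f5 held the largest shares throughout, and in the miR-25 library they held 43.5% and 34.2%. E2f7 and E2f8 together went from 10.5% in the control library to 14.5% under miR-106b and 13.9% under miR-93 and to 4.77% under miR-25. With E2f6 counted in, E2f6 alone held 52.7% to 57.9% of the sum. The activator over repressor ratio with E2f6 among the repressors had a log2 change of -0.53 (-0.71 to -0.34) for miR-106b, -0.31 (-0.49 to -0.12) for miR-93 and -0.53 (-0.73 to -0.33) for miR-25. The direction was the same, and miR-25 and miR-106b did not differ in this ratio beyond counting error, at -0.00 (-0.20 to 0.19), nor in the ratio without E2f6, at -0.21 (-0.44 to 0.02).

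**Figure D3:**
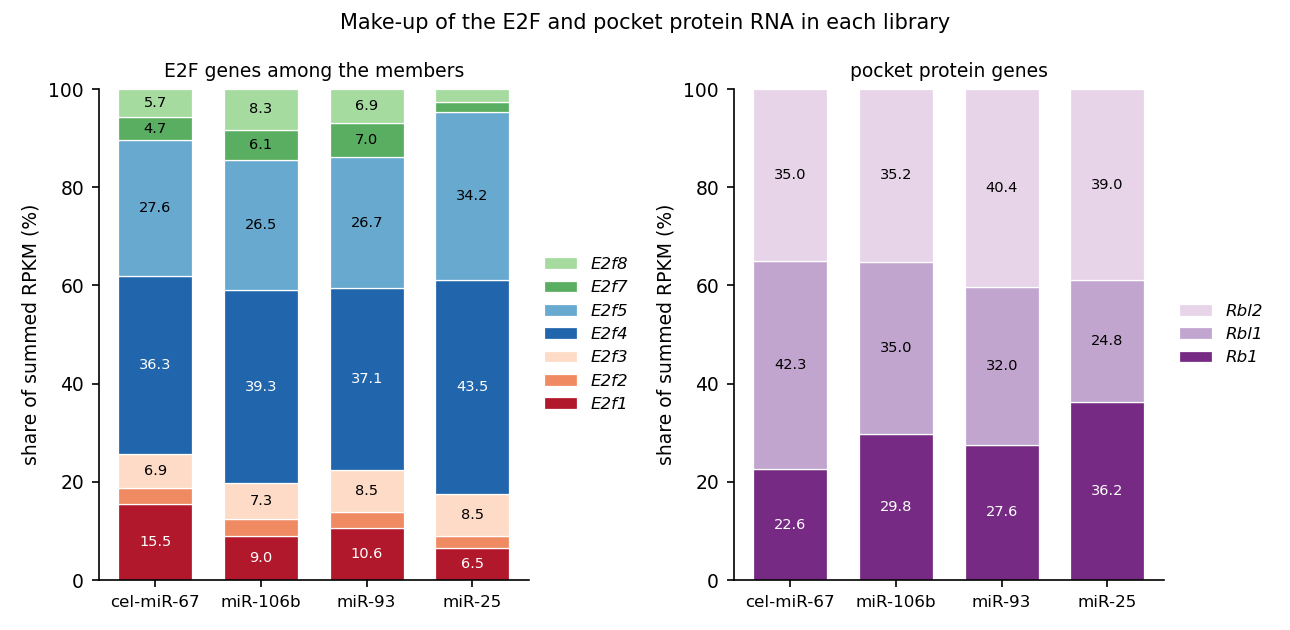
Share of the summed RPKM (%) held by each E2F gene among the 7 (left) and by each pocket protein gene among the 3 (right), with 1 bar per library and shares above 4% printed in the bars. The E2f1 block is widest in the control library, at 15.5%, the E2f7 and E2f8 blocks are thinnest under miR-25, and the Rbl1 block goes from 42.3% in the control library to 24.8% under miR-25 as the Rb1 block goes from 22.6% to 36.2%.

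The pocket protein genes differed from one another. Rbl1 (Ensembl gene ENSRNOG00000006921), the gene of p107, which is low in resting cells and rises in cycling cells, was at 6.87 RPKM in the control library and 4.55, 4.95 and 4.82 in the miR-106b, miR-93 and miR-25 libraries, from 467, 406, 406 and 394 reads. The control library was the highest, and the exact intervals of the mimics lay below it and overlapped each other. The log2 fold change of Rbl1 was -0.59 (-0.79 to -0.40), -0.47 (-0.67 to -0.28) and -0.51 (-0.71 to -0.31). With reads on listed genes as the library size, which moved every log2 fold change by 0.08 for miR-106b, 0.15 for miR-93 and 0.15 for miR-25, the values of Rbl1 were -0.51, -0.32 and -0.36, and those for miR-93 and miR-25 lie within 1.3-fold. Under that scaling E2f1 stayed past 1.3-fold lower for each mimic, while E2f7 came past 1.3-fold for miR-106b, at 0.41, and E2f3 and E2f8 for miR-93, at 0.43 and 0.39. Under that scaling E2f4 and E2f5 were above the control for miR-25, at 0.28 (0.08 to 0.47) and 0.32 (0.01 to 0.64), beyond counting error and within 1.3-fold but for the upper ends of the intervals. Centring on the median gene moved the values by 0.00 to 0.01 and left Rbl1 past 1.3-fold with each mimic.

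Rb1 (Ensembl gene ENSRNOG00000016029), the gene of the retinoblastoma protein, was at 3.67 RPKM in the control library, 3.87 under miR-106b, 4.27 under miR-93 and 7.03 under miR-25, from 260, 360, 365 and 599 reads. The miR-25 library stood clear of the other 3, whose intervals overlap. Its log2 fold change was 0.94 under miR-25 (0.73 to 1.15), a 1.92-fold higher level, against 0.08 (-0.16 to 0.31) under miR-106b and 0.22 (-0.01 to 0.46) under miR-93. Rbl2 (Ensembl gene ENSRNOG00000012153), the gene of p130, the pocket protein of resting and differentiated cells, was at 5.68, 4.56, 6.25 and 7.56 RPKM under cel-miR-67, miR-106b, miR-93 and miR-25, from 626, 660, 830 and 1001 reads. Rbl2 was highest under miR-25, at a log2 fold change of 0.41 (0.27 to 0.56). It was lowest under miR-106b, at -0.32 (-0.48 to -0.16), which is beyond counting error but within 1.3-fold. With miR-93 the value was 0.14 (-0.01 to 0.29). With reads on listed genes as the library size, the miR-93 values of Rb1 and Rbl2 were 0.37 (0.13 to 0.60) and 0.28 (0.13 to 0.44). Both were then beyond counting error, and within 1.3-fold but for the upper ends of the intervals.

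The summed RPKM of the 3 pocket protein genes was 16.2 in the control library, 12.98 under miR-106b, 15.5 under miR-93 and 19.4 under miR-25. Rbl1 was 0.735 times as abundant as Rb1 and Rbl2 together in the control library and 0.539, 0.471 and 0.330 times in the miR-106b, miR-93 and miR-25 libraries. This ratio is taken within a library and does not move with the scaling. Its log2 change was -0.45 (-0.68 to -0.21), -0.64 (-0.87 to -0.41) and -1.15 (-1.38 to -0.92), so Rbl1 was lower relative to the other pocket proteins with each mimic, and in the miR-25 library the level of Rbl1 was lower and those of Rb1 and Rbl2 were higher.

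Markers of cell types differed from the control in every mimic library. Past 1.3-fold, all 5 smooth muscle markers were higher under miR-25, with a summed level of 2056 RPKM against 746 in the control library. The 7 cardiomyocyte markers found once were all lower, and 6 of the 7 fibroblast markers were lower, with summed levels of 8355 against 12708 and 194 against 503 RPKM. The other mimics had marker differences as well: 3 of the 7 cardiomyocyte and 4 of the 7 fibroblast markers were lower under each of miR-106b and miR-93, and 1 cardiomyocyte marker was higher. Of the smooth muscle markers, 2 of 5 were lower and 1 higher under miR-106b, and 2 of the 4 tested were lower under miR-93. The cardiomyocyte sum was 10389 RPKM under miR-106b and 8042 under miR-93, below that of the miR-25 library, the fibroblast sums were 388 and 434, and the smooth muscle sums were 687 and 584. The 5 endothelial markers found once summed to 3.96 to 5.13 RPKM across libraries. The 6 macrophage markers summed to 12.18 RPKM in the control library, 12.19 under miR-106b, 13.99 under miR-93 and 6.34 under miR-25. Of the macrophage markers tested, 2 of 3 were lower under miR-25 and 1 of 4 was higher under miR-93, and none was past 1.3-fold under miR-106b. None of the endothelial and macrophage markers was at 0 in any mimic library. The part of cell types in the differences of the 10 genes was not tested.

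The mimics were also compared with one another, without the control library. Between miR-93 and miR-106b, which share a seed, 9 genes had the level, and Rbl2 alone was past 1.3-fold, higher under miR-93 at 0.45 (0.30 to 0.60), with none lower. Among all genes 7.30% were higher and 8.21% lower under miR-93 than under miR-106b. For E2f1 the difference was 0.28 (0.05 to 0.51), higher under miR-93 and within 1.3-fold. For the other 8 genes the interval includes 0, from -0.23 for E2f8 (-0.60 to 0.13) to 0.26 for E2f3 (-0.03 to 0.56).

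Between miR-25 and miR-106b, 7 genes had the level, Rb1 (0.86, 0.67 to 1.05) and Rbl2 (0.73, 0.58 to 0.87) were higher under miR-25, and E2f1 was lower at -0.55 (-0.82 to -0.28), against 22.1% higher and 23.0% lower among all genes. Between miR-25 and miR-93, Rb1 was higher at 0.72 (0.53 to 0.91) and E2f1 lower at -0.83 (-1.10 to -0.57) of the 7 genes, with the same shares of 22.1% and 23.0% among all genes. E2f7 and E2f8, again under the cutoff in the miR-25 library, were at -1.59 (-2.12 to -1.08) and -1.74 (-2.28 to -1.23) against miR-106b and at -1.82 (-2.35 to -1.32) and -1.51 (-2.07 to -0.98) against miR-93. E2f2, also under the cutoff, was lower in the miR-25 library beyond counting error, at -0.49 (-0.95 to -0.04) against miR-106b and -0.47 (-0.94 to -0.01) against miR-93. Rbl2 was higher in the miR-25 library than in the miR-93 library by 0.27 (0.14 to 0.41), which is within 1.3-fold. Rbl1 did not differ beyond counting error between any 2 mimics, with values from -0.04 (-0.24 to 0.16) to 0.12 (-0.08 to 0.33).

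Genes that work with the E2F and pocket proteins were taken from 5 lists. The first holds the DP partners of the E2F factors and the MuvB (DREAM) complex, which joins p130 and E2F4 in resting cells and B-Myb and FoxM1 in cycling cells, and all 10 of its genes were found once. Past 1.3-fold, 2 were higher and 2 lower under miR-106b, 1 and 3 of 10 under miR-93, and 0 and 3 of 9 under miR-25, with medians of 0.18, 0.04 and -0.04. Tfdp1, the main DP partner, was at 14.9 RPKM in the control library and its log2 fold change was 0.23 under miR-25 (0.12 to 0.33), the highest of the list and within 1.3-fold. Tfdp2 was the highest under miR-93, at 0.65 (0.42 to 0.88). Mybl1, the gene of A-Myb, was the lowest under miR-106b at -0.75 (-0.88 to -0.63) and under miR-93 at -1.47 (-1.63 to -1.32). Foxm1 was the highest under miR-106b, at 0.43 (0.22 to 0.65). Among the 9 genes tested under miR-25, Mybl2, the gene of B-Myb and an E2F target, was the lowest, at -1.14 (-1.44 to -0.85). Foxm1 was the gene of the list not tested under miR-25. It was at 2.42 RPKM in the control library and did not pass the RPKM cutoff in the miR-25 library, so it was lower there.

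Of 10 corepressors and partners of the pocket proteins, 8 were found once and tested. With miR-106b none was past 1.3-fold, and under miR-93 and miR-25 only Dyrk1a was, the gene of the kinase that assembles the DREAM complex. Dyrk1a was at 23.0 RPKM in the control library and lay on the log2 scale at -0.33 (-0.43 to -0.22), -0.63 (-0.74 to -0.52) and -0.50 (-0.61 to -0.39) in the miR-106b, miR-93 and miR-25 libraries, the lowest of the list each time. Ctbp1 was the highest under miR-106b, at 0.19, and under miR-93, at 0.24, and Kdm5a the highest under miR-25, at 0.37 (0.31 to 0.44). The medians of the list were -0.06, -0.03 and 0.14.

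Upstream of the pocket proteins, 12 of 13 genes for D cyclins, their kinases and their inhibitors were found once. Past 1.3-fold, 2 of 12 were higher and 2 lower under miR-106b, 1 and 4 of 11 under miR-93, and 5 and 2 of 12 under miR-25. Ccnd1 and Ccnd2, whose proteins start the phosphorylation of pocket proteins, were past the cutoff with all 3 mimics, at 18.6 and 98.5 RPKM in the control library, and both were lower under miR-106b and miR-93 and higher under miR-25. Their kinase gene Cdk4, at 98.3 RPKM, was within 0.02 of 0 on the log2 scale with every mimic. The extremes of the list were otherwise inhibitors: Cdkn1c, at 1.501 RPKM in the control library, was at 5.13 under miR-106b and 9.86 under miR-93, Cdkn1a went from 9.61 to 31.5 RPKM under miR-25, and Cdkn2c went from 5.45 to 2.54 RPKM under miR-25.

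Downstream, 29 of the 30 G1/S genes that E2F factors are known to regulate were found once. With miR-106b 6 of 28 tested were higher and 2 lower, and under miR-93 4 were higher and 3 lower, with medians of 0.17 and -0.01. With miR-25 22 of 27 were lower and 1 was higher, with a median of -0.92, and against miR-106b 22 of 27 were lower as well, with a median of -1.12. Ccne2, the gene of cyclin E2, was the lowest under miR-106b at -0.54 (-0.68 to -0.41) and under miR-93 at -0.66 (-0.80 to -0.51), while Tk1, the gene of thymidine kinase, was the highest with both, at 1.14 and 1.29. Of the 27 tested under miR-25, Gins1, part of the replicative helicase, was the lowest at -2.05 (-2.53 to -1.60). Tyms, the gene of thymidylate synthase, was the only one of these that was higher, at 0.64 (0.53 to 0.76). Mcm7, the host gene of the cluster, was at 23.2 RPKM in the control library and had log2 fold changes of 0.01, -0.28 and -1.23 in the miR-106b, miR-93 and miR-25 libraries.

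The G2/M genes bound by MuvB complexes had positive medians under miR-106b and miR-93 and a negative median under miR-25. All 17 found once were higher under miR-106b, 13 were higher and none lower under miR-93, and 16 were lower under miR-25, with medians of 0.81, 0.45 and -1.02. Ccnb1, the gene of cyclin B1, was the highest with each mimic and was the 1 gene within 1.3-fold under miR-25. Kif2c, a mitotic kinesin, was the lowest under miR-25, at -1.95 (-2.23 to -1.67). The lists were set with earlier results for genes of this kind known, so their directions are descriptions.

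**Figure D4:**
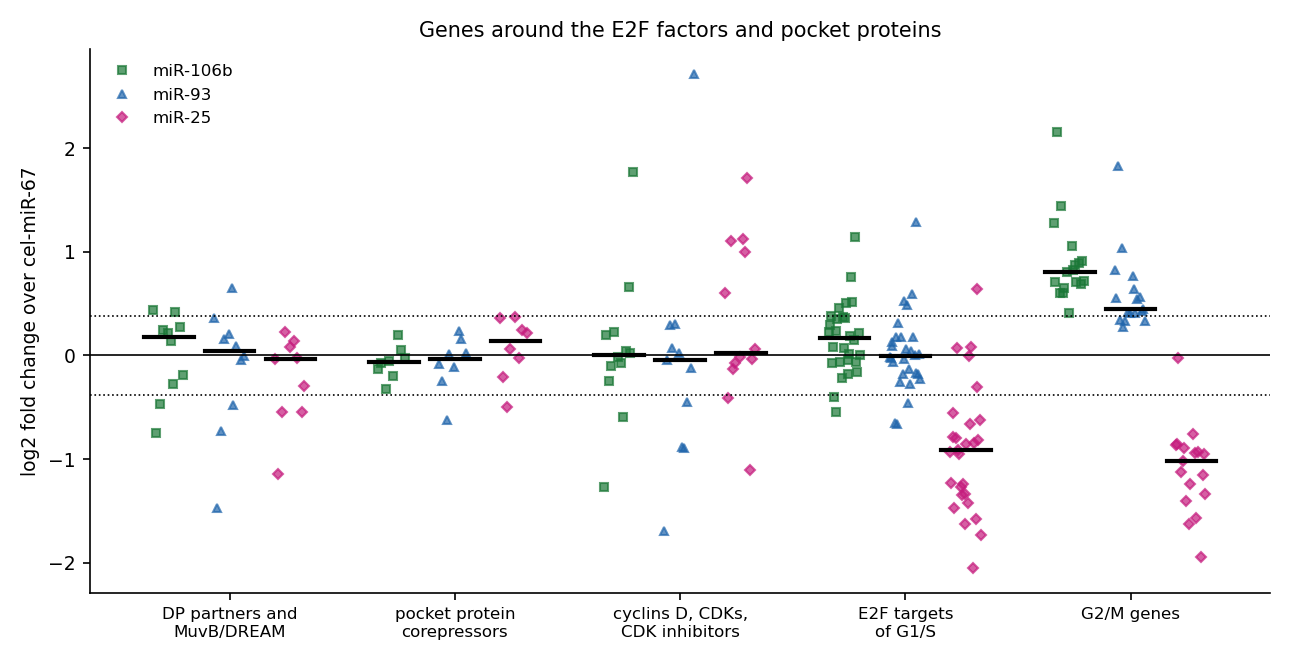
log2 fold change over cel-miR-67 of the tested genes of the 5 lists, with 1 point per gene and mimic, a black bar at the median and dotted lines at 1.3-fold. G1/S targets and G2/M genes lie mostly below the lower line under miR-25, with medians of -0.92 and -1.02, while G2/M genes lie above 0 under miR-106b and miR-93 and most corepressors lie between the lines, with Dyrk1a below them under miR-93 and miR-25.

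Outside these lists, the genes closest to E2f1 and Rbl1 over the 3 log2 fold changes were looked up among 6486 genes with RPKM above 5 in all libraries. Mgst3 (distance 0.14) and Galnt18 (0.18) were closest to E2f1, with values of -0.71, -0.56 and -1.39 for Mgst3 in the miR-106b, miR-93 and miR-25 libraries. Triap1 (distance 0.02) and Ssh2 (0.10) were closest to Rbl1, with -0.60, -0.47 and -0.53 for Triap1. The distance is Euclidean on the log2 scale over 3 comparisons that share the control library.

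Promoters of 5 of the 10 genes (E2f3, E2f7, Rb1, Rbl1 and Rbl2) were matched by symbol in RefSeq's GRCr8 table, as 250 bases before and 50 after a transcript's start. They were searched on both strands for 4 forms of the E2F motif (TTTCCCGC, TTTGGCGC, TTTGCCGC and TTTCGCGC) and for the CHR motif of MuvB complexes (TTTGAA), whose matches in these promoters did not overlap. An E2F motif was present in 3 of the 5 promoters, those of E2f3, Rb1 and Rbl1, and in 2.14% of all 33469 promoters. The CHR motif was present in those of E2f3 and Rbl2 and in 18.3% of all promoters. Of these genes, at the deposited scaling, Rbl1 was lower with each mimic, Rb1 was higher under miR-25 alone and E2f3 was within 1.3-fold. Rbl2 was higher under miR-25, at 0.41, and within 1.3-fold under miR-106b, at -0.32, and under miR-93. E2f7, whose promoter held no searched motif, was higher under miR-93, at 0.56. With miR-25 E2f7 was at -1.27, under the RPKM cutoff. With listed reads as the library size, Rbl1 was past 1.3-fold for miR-106b alone and E2f3 for miR-93, and E2f7 came past it for miR-106b too. The 30 bases around the motifs are shown for E2f3 and Rbl1, with motifs in capitals, and the motif of Rb1 lies just after the start.
E2f3 (GRCr8, plus strand, chr17:34810321-34810350): tatggTTTGAAaagccgGCGGGAAAtctga
Rbl1 (GRCr8, minus strand, chr3:166289377-166289406): caagtaggcgatTTTCGCGCgctttgtcgc
The capitals of E2f3 mark TTTGAA and, on the other strand, TTTCCCGC, which begin 90 and 78 bases before the start, and those of Rbl1 mark TTTCGCGC, 18 bases before the start. A match describes the letters and is not a measured site.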

How the data were processed

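RNA of 4 cultures, 1 for each mimic, was sequenced as single reads. The authors trimmed the reads with Cutadapt, mapped them with STAR (version 2.7 in the submitters' processing notes) against the Ensembl rat build Rnor 6.0, and turned rounded gene counts into the deposited RPKM values in edgeR. The program that counted reads on genes is not given in the sources used here, and the values of the 4 sample files equal those of the series table. Here a fold change is a ratio of deposited RPKM values without a pseudocount, with the 1.3-fold and 1.0 RPKM cutoffs of the study's results text. The study's methods text gives an RPKM cutoff of 2.0 instead, which was run as an alternative. With 1 library for each mimic no test across genes was run.

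Whole reads were recovered because a gene's RPKM values in different libraries are ratios of whole numbers once library sizes are known. The sizes came from the most common ratio and from the requirement that gene lengths are whole. For 654 genes, E2f8 among them, a factor common to all libraries was restored from the gene length. The recovery and the intervals were tested on simulated data with known reads. The simulated reads held counting error alone, so that test does not reach the spread between cultures. Exact intervals (Clopper-Pearson for folds, Poisson for levels, 95%) use these reads, and intervals of sums and ratios of sums use the delta method. The precision of a value is set by its reads, 40 to 1001 for the 10 genes.

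Of 176 symbols listed more than once, none is among the 10 genes, and such genes were left out of the lists. Beside the 10 genes and E2f6, the named genes are the highest and lowest of the tested genes of each list with each mimic. The upstream genes past 1.3-fold with all 3 mimics were also named. So were the 2 genes nearest to each of the 10 that was past 1.3-fold with at least 2 mimics. Cdk4, Mcm7, Tnnt2 and Actc1 were named after their values were seen. The members and lists were chosen with earlier results of these data known. Alternatives were library size, centring, pseudocounts, RPKM and fold cutoffs, and the make-up of the repressor class. Intervals came from scipy 1.17.1, tables from pandas 2.3.3 and numpy 2.4.6, and figures from matplotlib 3.10.9, under Python 3.11.15.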

Additional observations from a re-analysis of the deposited data

How the results depend on the processing

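No paired analysis was possible because each mimic has 1 library. Of 120 alternative values of single genes against the control, 5 moved beyond the counting interval and 2 changed sign within it (E2f2 and E2f5 under miR-93, with reads on listed genes as the library size, at 0.14 and 0.09). With reads on listed genes as the library size, 2 genes were higher under miR-106b (E2f7 and E2f8) in place of 1, 3 were higher and 1 lower under miR-93 in place of 1 and 2, and 1 was lower under miR-25 in place of 2. With a pseudocount of 1 RPKM, 0, 0 and 1 genes were higher under miR-106b, miR-93 and miR-25. With an RPKM cutoff of 2.0, which the study's methods text gives, 0 genes were higher under miR-106b and under miR-93 and 1 was lower under miR-25. That gene is Rbl1, since E2f1 was at 1.38 RPKM in the miR-25 library and no longer had the level. In the miR-106b library E2f1 was just above this cutoff, at 2.02 RPKM. Without the filter 5 genes were lower under miR-25, against 26.2% of all genes with reads in both libraries. Past 1.5-fold, 0, 0 and 1 genes were higher with the 3 mimics, 0 were lower under miR-93 and 1 under miR-25. Past 2-fold, 0 were higher with any mimic, 0 were lower under miR-106b and miR-93, and 1 was lower under miR-25, which is E2f1. The log2 change of the activator over repressor ratio under miR-25 was -0.43 with a pseudocount of 1 RPKM, which damps low values, and -0.015 as a mean over genes. In the other 13 of 15 alternatives the ratio stayed within its counting interval. At 40 to 149 reads, the intervals of E2f2, E2f7 and E2f8 are the widest and small differences are not detectable, and the spread between cultures was not measured.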
